A study of Mus musculus with 9 samples.

Results

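The genes described here are 6 genes of the cellular response to low oxygen: Hif1a and Arnt, which encode the subunits of the transcription factor HIF-1, Egln1 and Egln3, which encode prolyl hydroxylases that mark HIF subunits for destruction, and the HIF target genes Vegfa and Bnip3. They are 6 of 21883 protein-coding genes of the RefSeq annotation. For each gene, every peak that touched its RefSeq span (build GRCm38.p6, the assembly of mm10) or the 20 kb on either side was taken from 4 deposited lists of ATAC-seq peaks, which mark DNA open to a transposase. Hif1a and Egln3 were chosen because they held extra peaks in one of these lists, that of cells overexpressing Pcgf6. The counts that set this list against its control are therefore a description of the genes and support nothing by themselves.

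All cells were primary dendritic cells of C57Bl/6 mice, cultured from marrow for 9 days in 20 ng/mL GM-CSF, given retrovirus on day 2 and sorted for the vector's human CD8 reporter together with CD11c. The groups were the mi8 control vector, the vector that overexpresses Pcgf6 on the mi8 arm (OE), the LMP8 control vector, and the HP109 vector that knocks Pcgf6 down by a hairpin RNA on the LMP8 arm. Pcgf6 is a subunit of the repressive Polycomb complex PRC1.6. Each group had 2 libraries, and 1 further library served as input, but the authors deposited a single peak list per group, called against that input, so no value below has a replicate spread and no test between groups was run. Whether the 2 libraries of a group came from separate mice or cultures is not given in the sources used here.

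HIF-1 is a dimer of HIF-1α and its constant partner ARNT. When oxygen is plentiful, the EGLN enzymes hydroxylate HIF-1α and the von Hippel-Lindau protein directs it to the proteasome. When oxygen falls, or when myeloid cells are activated by inflammatory signals, HIF-1α accumulates and switches on genes for glycolysis, blood vessel growth and mitochondrial turnover, along with Egln3, which feeds back on it. In dendritic cells this programme accompanies the shift to glycolysis during activation.

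The RefSeq sequence that ends just before the start site of 4 of the genes is shown first, because all 4 lists had a peak over that site, and to show which letters of known binding motifs the open DNA holds. Capitals mark the core of the hypoxia response element to which HIF-1 binds (ACGTG or GCGTG, on either strand) and a match to an E2F-type motif (GGCGGGA, on either strand). The E-box CACGTG, bound by dimers of MAX, holds the hypoxia core on both strands and so counts as 2 cores. MAX with MGA, and E2F6, are the DNA-binding subunits of PRC1.6. Each stretch is 250 bases long, on the gene's own strand. The start site used for Hif1a (73907867) lies inside its RefSeq span, which begins at 73901324.

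Hif1a, chr12:73907617-73907866, plus strand: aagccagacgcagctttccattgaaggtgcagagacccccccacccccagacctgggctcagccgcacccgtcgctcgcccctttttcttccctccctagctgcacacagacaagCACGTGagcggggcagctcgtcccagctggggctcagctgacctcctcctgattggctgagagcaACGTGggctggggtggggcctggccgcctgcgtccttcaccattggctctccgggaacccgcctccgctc
Egln3, chr12:54203875-54204124, minus strand: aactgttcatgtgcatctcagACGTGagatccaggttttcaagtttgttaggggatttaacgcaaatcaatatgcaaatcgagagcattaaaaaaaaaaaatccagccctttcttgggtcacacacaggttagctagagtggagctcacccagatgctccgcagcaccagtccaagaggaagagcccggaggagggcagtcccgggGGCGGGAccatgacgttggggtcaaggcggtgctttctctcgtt
Vegfa, chr17:46032378-46032627, minus strand: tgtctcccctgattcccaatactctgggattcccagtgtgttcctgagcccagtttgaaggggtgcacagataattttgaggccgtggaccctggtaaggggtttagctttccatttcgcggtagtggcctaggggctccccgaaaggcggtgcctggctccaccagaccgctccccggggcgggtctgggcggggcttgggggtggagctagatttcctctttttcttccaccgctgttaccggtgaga
Bnip3, chr7:138909507-138909756, minus strand: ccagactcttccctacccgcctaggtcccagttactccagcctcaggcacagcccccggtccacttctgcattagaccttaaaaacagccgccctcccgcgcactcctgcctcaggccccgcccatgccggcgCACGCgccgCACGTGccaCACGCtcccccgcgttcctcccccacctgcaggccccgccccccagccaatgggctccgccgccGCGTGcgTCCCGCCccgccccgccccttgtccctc

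The Hif1a stretch held 3 hypoxia cores, of which 2 lay in an E-box that began 135 bases before the start site. Bnip3 held 5 cores, again with an E-box, 108 bases before the start, and an E2F-type match 28 bases before it. Egln3 held 1 core and 1 E2F-type match, and the printed stretch of Vegfa held none of the 3 motifs. The 250 bases before a downstream RefSeq start site of Vegfa (46025163), not printed, held 2 cores. Of the genes not printed, Egln1 held 2 cores and Arnt 1. Among the 21262 such stretches of protein-coding genes, 44.0% held a hypoxia core, 6.63% an E-box and 12.9% the E2F-type motif, so the core on its own is a common run of letters. A match describes the sequence and is no evidence of binding, and the absence of one says only that these letters are not in the 250 bases searched.

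The 6 genes lie on 5 chromosomes, and their spans differ in length. Hif1a covers 46.2 kb of chromosome 12 (73901324 to 73947554) and is read rightwards. Arnt covers 62.9 kb of chromosome 3 (95434367 to 95497240), also rightwards. Egln1 covers 40.7 kb of chromosome 8 (124908587 to 124949254), Egln3 24.9 kb of chromosome 12 (54178981 to 54203874), Vegfa 15.4 kb of chromosome 17 (46016993 to 46032377) and Bnip3 18.7 kb of chromosome 7 (138890836 to 138909506), all read leftwards. The reference used here gives gene spans and start sites but no exons, so no peak is placed in an exon or an intron.

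The libraries as a whole set the scale of these values. The lists held 170976 peaks for mi8, 111510 for OE, 140735 for LMP8 and 170103 for HP109. The number of reads piled up at each summit, and the input background there, could be worked back from the deposited fold and −log10 p for 100% of the peaks. The lowest background in a list came to 1.95 reads in mi8 and 2.00 in OE, a ratio of 1.03, and to 1.42 in LMP8 and 1.35 in HP109, a ratio of 0.952. By this value alone the lists of a pair were close, although their numbers of peaks differed. All 10 dendritic cell markers had a peak within 1000 bp of a gene end in mi8, LMP8 and HP109, and 9 did in OE, where Ciita lacked one. The same held for 64.8% of all genes in mi8, 58.2% in OE, 62.4% in LMP8 and 64.3% in HP109. The granulocyte markers with such a peak numbered 4 of 7 in mi8, 1 in OE, 3 in LMP8 and 5 in HP109. All 6 macrophage markers had one in every list, so these peaks do not set dendritic cells apart from macrophages. What part a different mix of cells has in the values below was not tested.

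The start site of every one of the 6 genes lay under a peak in all 4 lists. Over all RefSeq start sites of protein-coding genes, a peak lay within 500 bp of 60.9% in mi8, 55.2% in OE, 59.0% in LMP8 and 60.1% in HP109. The strength of a peak is given here as the authors' −log10 q, which states how far the reads at its summit exceed the input background; it ranks peaks within a list and grows with depth, so values from different lists are set side by side without a comparison. The peak at the Arnt start site, the constant HIF subunit, had a −log10 q of 126 in mi8, 144 in OE, 59.5 in LMP8 and 148 in HP109. It stood at the 99.7th, 99.8th, 96.9th and 99.9th percentile of those lists and was the strongest of the 6 genes in all but LMP8, where the Hif1a peak was stronger. The Hif1a start peak reached 92.8 in mi8, 101 in OE, 61.2 in LMP8 and 99.9 in HP109, with folds over background of 27.1, 28.6, 22.7 and 32.7. A further strong peak lay at the 5′ end of the Hif1a span in all 4 lists.

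At the hydroxylase genes, the Egln1 start peak had a −log10 q of 63.9 in mi8, 41.8 in OE, 31.0 in LMP8 and 71.5 in HP109. That of Egln3 had 73.1 in mi8, 98.7 in OE, 29.9 in LMP8 and 93.7 in HP109. Of the targets, Vegfa, the gene of a growth factor for blood vessels, had 46.2 in mi8, 72.0 in OE, 32.9 in LMP8 and 66.2 in HP109. Bnip3, whose product directs mitochondria to autophagy, had 74.0 in mi8, 103 in OE, 52.6 in LMP8 and 84.8 in HP109. The lowest percentile of a start peak within its list was 80.0, that of Egln3 in LMP8. A downstream start site that RefSeq lists for Vegfa had no peak within 500 bp in any list.

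**Figure D1:**
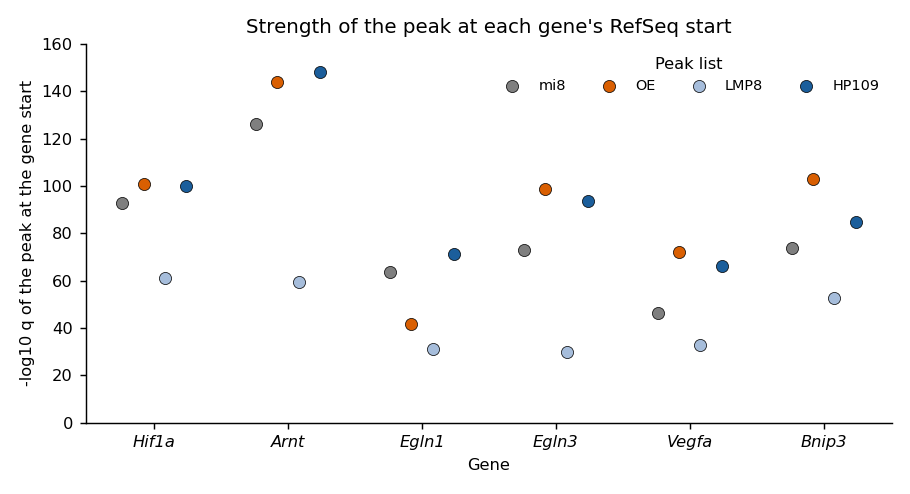
Authors' −log10 q (vertical axis) of the peak at the RefSeq start site of each of the 6 genes (horizontal axis), 1 point for each of the 4 peak lists, with no replicate spread. The lowest point is that of Egln3 in LMP8 (29.9), with Arnt the highest in OE, HP109 and mi8; values of different lists are not on a common scale.

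The number of peaks in the windows set Hif1a, Egln3 and Vegfa apart from the other genes. Hif1a had 32 peaks in mi8, 53 in OE, 27 in LMP8 and 35 in HP109. Egln3 had 20, 28, 18 and 17 peaks in that order, and Vegfa had 16, 26, 10 and 20. Each of these genes thus had most peaks in OE, the shortest of the 4 lists. Only 3.57% of all protein-coding genes had more peaks in OE than in mi8. Arnt went the other way, with 18 peaks in mi8, 13 in OE, 19 in LMP8 and 21 in HP109, as did Bnip3 with 10, 7, 11 and 11. Egln1 had 14 peaks in mi8 and in OE, 13 in LMP8 and 15 in HP109. Over the 6 windows together there were 110 peaks in mi8, 141 in OE, 98 in LMP8 and 119 in HP109.

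A peak that overlapped no peak of another list by even 1 bp is called absent from that list. Of the 53 OE peaks of Hif1a, 28 were absent from mi8 (52.8%, exact 95% interval 38.6 to 66.7, which covers counting error alone). For Vegfa it was 19 of 26 (73.1%, interval 52.2 to 88.4) and for Egln3 10 of 28 (35.7%, interval 18.6 to 55.9). Over the whole OE list 4.57% of peaks were absent from mi8, and since the genes were chosen on this contrast nothing is read from the distance. Egln1 had 1 of 14, and Arnt and Bnip3 had none of 13 and 7. In the other direction, 3 of 32 mi8 peaks of Hif1a were absent from OE, as were 5 of 20 at Egln3, 6 of 16 at Vegfa, 5 of 18 at Arnt, 4 of 14 at Egln1 and 4 of 10 at Bnip3, against 40.2% of all mi8 peaks. Where peaks up to 1 kb apart within a list were first joined, an alternative added after seeing the data, the OE-only count fell to 8 for Hif1a, 2 for Egln3 and 0 for Vegfa. At Egln3 the OE-only count also fell below the mi8-only count with a −log10 q minimum of 10 on both lists (difference -1) and in the gene span alone (-4). With such a minimum a peak also counts as absent where its counterpart fell below the cut. Counts of peaks therefore depend on how a stretch is divided, and the length covered by peaks is given below beside them.

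The OE-only peaks were of low to middling strength. At Hif1a their −log10 q ran from 1.78 to 15.5 with a median of 4.47, at Egln3 from 2.04 to 9.64 with a median of 4.67, and at Vegfa from 2.2 to 16.6 with a median of 4.46. Hif1a had 16 OE peaks of a −log10 q below 5, and mi8 lacked all 16 of them, along with 10 of 15 from 5 to 10, 2 of 8 from 10 to 20 and 0 of 14 at 20 or more. At Vegfa the counts were 10 of 10, 5 of 6, 4 of 7 and 0 of 3, and at Egln3 5 of 8, 5 of 8, 0 of 3 and 0 of 9. In the whole OE list the share absent from mi8 was 17.2% under 5, 7.63% from 5 to 10, 1.66% from 10 to 20 and 0.105% at 20 or more. At these 3 genes mi8 thus had a counterpart for every OE peak of 20 or more, the start peaks among them.

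In reads, the summits of the 28 OE-only peaks of Hif1a held 9 to 27 with a median of 14, those of Egln3 9 to 19 with a median of 14.5, and those of Vegfa 11 to 25 with a median of 16. The list of mi8 gives a rough scale for what may have been missed there. Among mi8 peaks with a background within 10% of that at the OE-only peak, the weakest ones called held 7 to 11 reads for Hif1a, 7 to 11 for Egln3 and 7 to 17 for Vegfa. All 28, 10 and 19 OE-only summits lay above this lowest called pileup, and 10, 3 and 6 of them were at least 2 times as high. Lying above it follows largely from the calling, since the lowest pileup in the whole list was 7 in mi8 and 8 in OE. It therefore lends no weight to the OE-only peaks. A site absent from mi8 may still have carried reads below the calling limit, so absence is not a count of zero. The input background under the OE-only peaks was within 10% of the lowest in the list for 21 of 28 at Hif1a, for 2 of 10 at Egln3 and for 4 of 19 at Vegfa.

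The positions of the OE-only peaks are those of the peaks the genes were chosen on, and are given as a description. At Hif1a, Egln3 and Vegfa none lay before the 5′ end of its gene. At Hif1a, 18 lay inside the span, from 26.6 to 0.25 kb before its 3′ end, and 10 lay past the 3′ end, from 3.09 to 12.95 kb beyond it. With the span divided into 4 equal stretches, counted from the 5′ end, the OE-only peaks numbered 0, 4, 5 and 9. At Egln3, 9 of the 10 lay past the 3′ end, from 1.47 to 15.28 kb beyond it, and 1 inside the gene. At Vegfa, 15 of the 19 lay past the 3′ end, from 0.20 to 13.94 kb beyond it, and 4 inside, within 4.50 kb of that end. The remaining OE-only peak, that of Egln1, lay before the 5′ end of its gene. Summed over all genes of known strand, 3.25% of OE peaks in the 20 kb before a gene, 4.61% of those inside and 4.44% of those in the 20 kb past the 3′ end were absent from mi8.

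**Figure D2:**
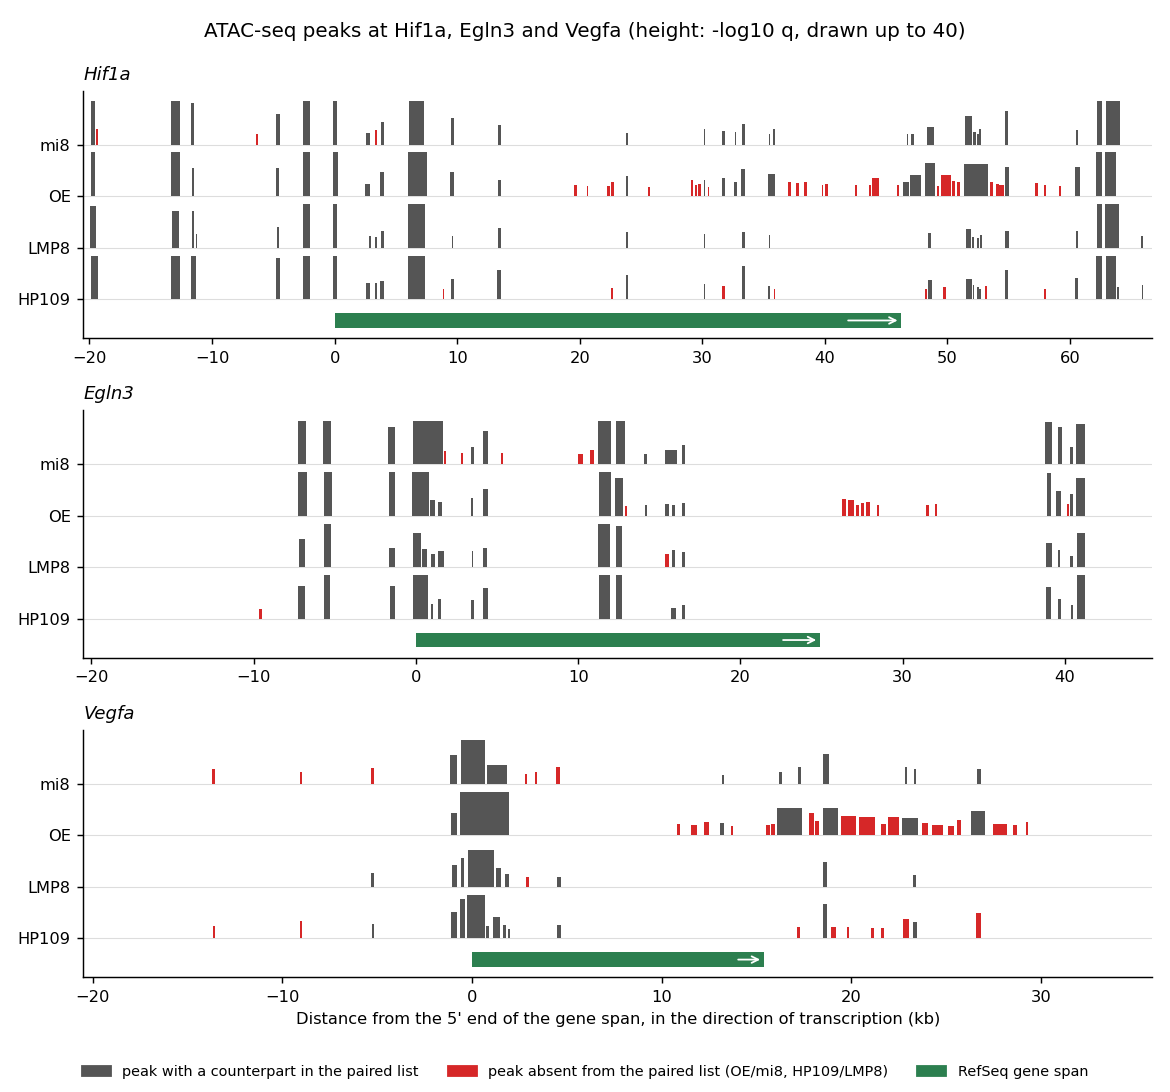
Peaks of the 4 lists (rows) at Hif1a, Egln3 and Vegfa, by distance in kb from the 5′ end of the gene span in the direction of transcription (horizontal axis); the height of a box is the −log10 q, drawn up to 40, and the green bar is the gene. The red boxes of OE, absent from mi8, are spread over the later part of Hif1a and the DNA past the 3′ ends of all 3 genes (10, 9 and 15 peaks), while none lies before a gene.

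Other annotated genes overlapped some of these peaks. In the Hif1a window, 13 of the 28 OE-only peaks overlapped the long non-coding RNA gene Gm15283 (73934724 to 73952439), which itself overlaps the 3′ part of Hif1a. None overlapped Snapc1, the next protein-coding gene, whose span begins 16.9 kb past the end of Hif1a. At Egln3, 2 of the 10 overlapped the non-coding gene Gm40424 (54177087 to 54178759), which begins 0.22 kb past the end of Egln3. The Vegfa window held no other RefSeq gene. Among single intervals, the strongest OE-only peak at Hif1a lay at 73950781 to 73951608 with a −log10 q of 15.5 and 27 reads at its summit, over a background of 2.87, and HP109 had a counterpart. That of Vegfa lay at 46014352 to 46014602 with 16.6, 25 reads and a background of 2.12, and that of Egln3 at 54177376 to 54177592 with 9.64, 19 reads and a background of 2.37.

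The length covered by peaks was taken beside the counts; gaps between peaks are not in it, and it was not recomputed under the alternatives. In the 20 kb past the 3′ end of Vegfa, peaks covered 47.8% of the DNA in OE, 5.76% in mi8, 1.91% in LMP8 and 9.12% in HP109. Past Hif1a they covered 45.9% in OE, 19.6% in mi8, 16.5% in LMP8 and 20.4% in HP109, the start of Snapc1 included. Past Egln3 they covered 15.6%, 7.20%, 5.92% and 5.59% in that order. Past the other 3 genes OE was the lowest of the 4 lists, with 5.48% at Arnt against 12.9% in mi8, 6.89% at Egln1 against 9.97%, and 1.24% at Bnip3 against 1.74%. Over 17491 genes of known strand, the mean cover of this stretch was 2.95% in OE, 4.43% in mi8, 3.69% in LMP8 and 4.08% in HP109, and 5.21% of the genes had more base pairs covered in OE than in mi8.

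**Figure D3:**
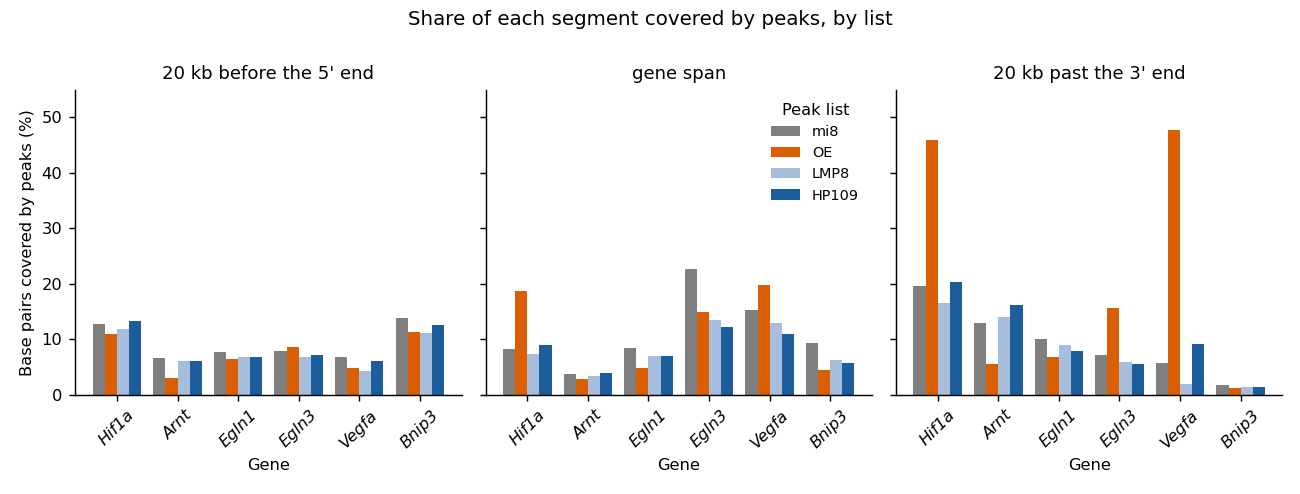
Share of base pairs covered by peaks (vertical axis, %) before, inside and past each of the 6 genes, with 1 bar for each peak list and no replicate spread. OE stands above the other lists past the 3′ ends of Hif1a (45.9%), Egln3 (15.6%) and Vegfa (47.8%) and inside Hif1a (18.7%) and Vegfa (19.8%), and below them past Arnt, Egln1 and Bnip3.

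Inside the genes the picture was less uniform. Peaks covered 18.7% of the Hif1a span in OE, 8.25% in mi8, 7.33% in LMP8 and 9.04% in HP109. For Vegfa the values were 19.8% in OE, 15.2% in mi8, 13% in LMP8 and 11% in HP109. The Egln3 span was covered to 22.6% in mi8, more than the 14.9% in OE, 13.4% in LMP8 and 12.3% in HP109, and 5 of the 12 mi8 peaks with a summit there were absent from all 3 other lists. Of all mi8 peaks, 40.2% were absent from OE and 24.9% from LMP8. The share absent from all 3 lists was not taken, so the count at Egln3 has no background. Before the 5′ ends, OE covered 11% at Hif1a against 12.8% in mi8, 8.56% at Egln3 against 7.87%, and 4.75% at Vegfa against 6.85%.

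Set among all genes, the counts past the 3′ end placed these genes at the far end of the distribution, given here as a description since the same lists were used to choose Hif1a and Egln3. Vegfa, with 15 OE-only peaks past its 3′ end, had the most of all 17491 genes of known strand. Hif1a, with 10, was among the 5 genes with at least that many, and Egln3, with 9, among the 9 genes with at least that many. A count of 5 or more occurred at 0.131% of genes. By the cover of the same stretch, OE minus mi8, Vegfa (8415 bp) was among the 3 highest genes, Hif1a (5246 bp) among the 4 highest and Egln3 (1673 bp) among the 13 highest. Arnt, Egln1 and Bnip3 had no OE-only peak there, as did most genes. Over the whole window, Hif1a had the most OE-only peaks of any gene, and a count of 10 or more, reached by Hif1a, Vegfa and Egln3, occurred at 0.105% of genes. Windows of neighbouring genes overlap, so 1 peak can count for several genes.

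**Figure D4:**
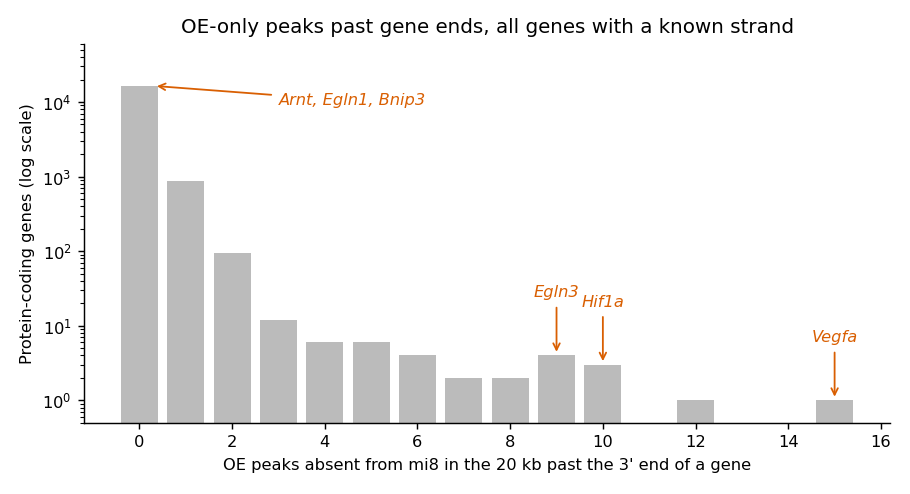
Number of protein-coding genes (vertical axis, log scale) by the number of OE peaks absent from mi8 in the 20 kb past the 3′ end (horizontal axis), over 17491 genes of known strand. Vegfa stands at 15, Hif1a at 10 and Egln3 at 9, while Arnt, Egln1 and Bnip3 stand at 0.

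Among genes with at least 10 OE peaks in the window, the 5 with the highest share of OE peaks absent from mi8 were Vegfa itself (73.1%), Ccdc91 (12 of 19, 63.2%), Rab44 (8 of 13, 61.5%), Snapc1 (13 of 22, 59.1%) and Hspa5 (11 of 19, 57.9%). Of the 4983 such genes, 8 had a share at least that of Hif1a, itself included, and 35 at least that of Egln3. The window of Rab44 (span 29114128 to 29148980 of chromosome 17) reaches into Cdkn1a (29090979 to 29100722), so both genes can count the same peaks. Snapc1 neighbours Hif1a, and all 13 of its OE-only peaks lay before its 5′ end and are also peaks of the Hif1a window, 10 of them between the genes and 3 inside the Hif1a span. Hspa5 encodes a chaperone of the endoplasmic reticulum, and 7 of its 11 OE-only peaks lay past its 3′ end. Its span (34772090 to 34776529 of chromosome 2) overlaps that of Rabepk (34774609 to 34800196). Rabepk had 11 OE-only peaks, 10 of them inside its own span, so both genes can count the same peaks.

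Most OE-only peaks of the 3 genes were in OE alone. Of the 28 at Hif1a, 25 were absent from all 3 other lists, as were 16 of 19 at Vegfa and 10 of 10 at Egln3. Over the whole OE list, 2487 of the 5091 peaks absent from mi8 were absent from all 3 other lists, which is 2.23% of all OE peaks. Since the genes were chosen on their OE peaks, nothing is read from the distance. The other 3 of Hif1a and the other 3 of Vegfa had a counterpart in HP109. None of the OE-only peaks of these genes had one in LMP8. At Egln1 the single OE-only peak was in OE alone.

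The knockdown was compared with its own control, a pair that shares no library with OE and mi8 apart from the input. Of the HP109 peaks of Hif1a, 8 of 35 were absent from LMP8 (22.9%, exact 95% interval 10.4 to 40.1), and 0 of 27 LMP8 peaks were absent from HP109. Over the whole lists, 23.9% of HP109 peaks were absent from LMP8 and 8.06% of LMP8 peaks were absent from HP109, so the share at Hif1a was near the background. Vegfa had 9 of 20 HP109 peaks absent from LMP8 (45%, interval 23.1 to 68.5) and 1 of 10 the other way. The interval of Vegfa includes the background, but it takes neighbouring peaks as independent, so nothing is concluded from it. At Egln1 the counts were 2 of 15 and 1 of 13, at Egln3 1 of 17 and 1 of 18, and at Bnip3 1 of 11 each way. At Arnt every HP109 peak had a counterpart in LMP8 and the reverse.

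At Vegfa most HP109-only peaks lay past the 3′ end, as did most OE-only peaks. Of the 15 OE-only peaks there, 3 had a counterpart in HP109. Past the 3′ end of Vegfa HP109 had 9 peaks and LMP8 had 2. Of the 9, 7 were absent from LMP8, against 22.0% of HP109 peaks past the 3′ end of all genes. All 9 had a counterpart in OE, whose peaks covered 47.8% of this stretch, and 4 had none in mi8. The strongest of the 7 lay at 46005510 to 46005778 with a −log10 q of 20.2 and 26 reads at its summit, over a background of 1.70, and mi8 had a counterpart of it. The cover of this stretch was 1444 bp larger in HP109 than in LMP8, a difference reached by 46 of 17491 genes, while 48.6% of genes had more cover in HP109 than in LMP8. Both Pcgf6 vectors thus had more peaks past Vegfa than their own controls, 19 against 6 and 9 against 2, but the controls also differed from each other there, and no replicate spread is at hand to weigh either difference. For Hif1a the difference was 782 bp, reached by 166 genes, and for Egln3 it was -65 bp.

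**Figure D5:**
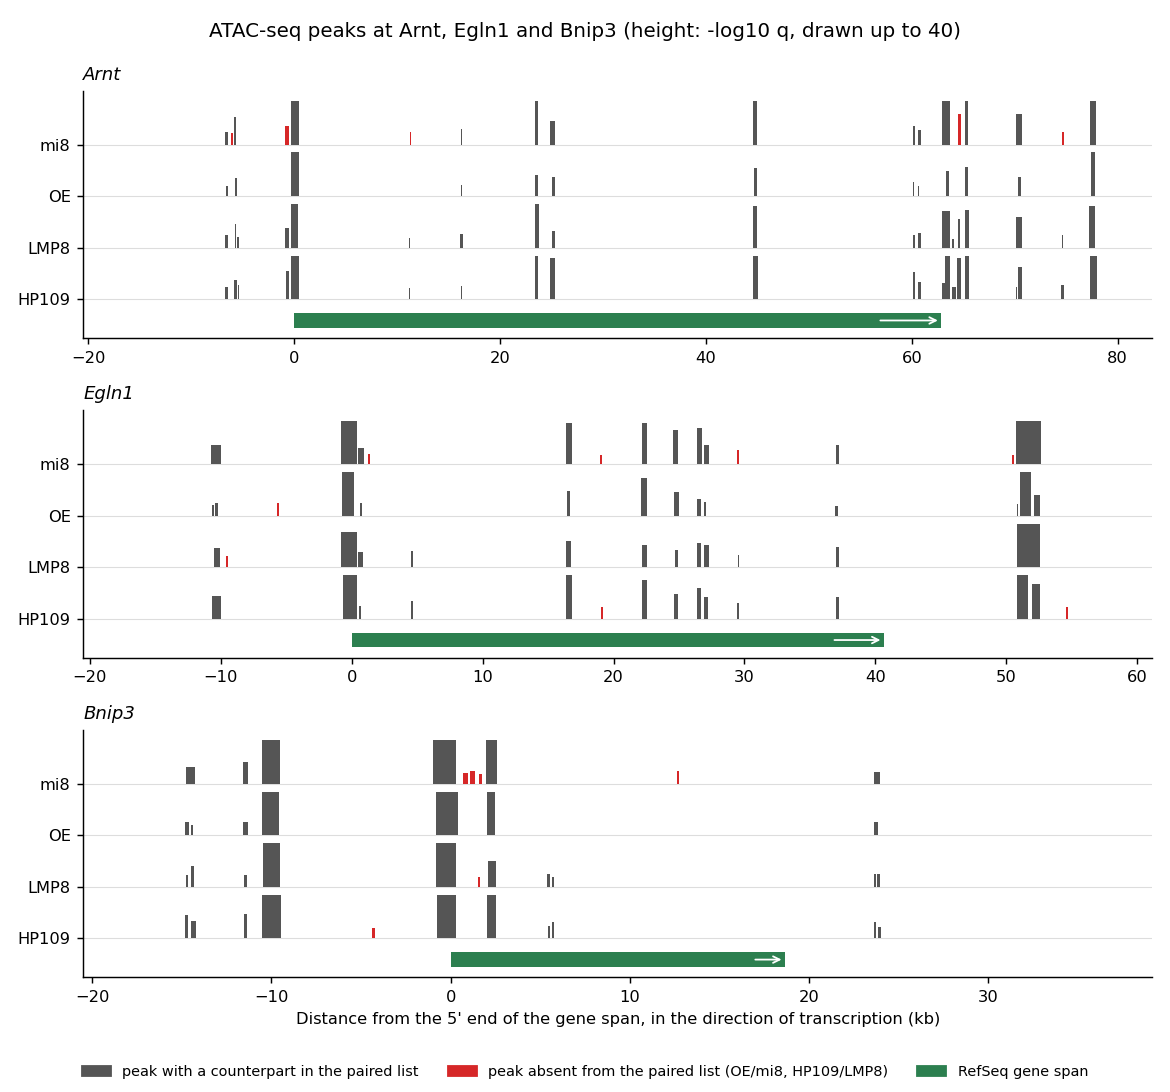
Peaks of the 4 lists (rows) at Arnt, Egln1 and Bnip3, drawn as for Hif1a, by distance in kb from the 5′ end of the gene span (horizontal axis). OE has a single peak absent from mi8, before Egln1, while mi8 has 5, 4 and 4 peaks absent from OE.

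Arnt, Egln1 and Bnip3 showed no OE-only stretch. At Arnt the strongest mi8 peak absent from OE lay at 95498818 to 95499101, between Arnt and Ctsk, the gene of the protease cathepsin K, with a −log10 q of 25.8, and LMP8 (23.2) and HP109 (37.7) both had it. OE had 13 peaks here and all had a mi8 counterpart. At Egln1 the mi8 peaks absent from OE were weak, with a −log10 q from 1.88 to 7.46, and at Bnip3 from 1.96 to 5.87. Inside Bnip3, HP109 peaks at 138903716 to 138903838 (−log10 q 9.69) and at 138903958 to 138904096 (5.68) had counterparts in LMP8 and in neither mi8 nor OE.

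As a background with no Pcgf6 vector on either side, the controls were compared with each other. Their lowest backgrounds differed more than those within a pair, with a ratio of 1.37 for mi8 over LMP8. What part depth has in these shares was not tested. Of mi8 peaks, 7 of 32 at Hif1a were absent from LMP8, with 1 of 18 at Arnt, 3 of 14 at Egln1, 6 of 20 at Egln3, 8 of 16 at Vegfa and 3 of 10 at Bnip3, against 24.9% of all mi8 peaks. Of LMP8 peaks, 2 of 27, 2 of 19, 2 of 13, 0 of 18, 0 of 10 and 2 of 11 in the same order were absent from mi8, against 5.98% of all LMP8 peaks. Vegfa was therefore the gene, of the 6, with the largest share of mi8 peaks missing from the LMP8 list. Its exact 95% interval, 24.7% to 75.3%, includes the background but again takes neighbouring peaks as independent. This comparison shares the mi8 list with that of OE and the LMP8 list with that of HP109.

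Most other genes of the pathway had fewer OE-only than mi8-only peaks. Of 52 further genes of HIF subunits, oxygen sensing, coactivators and targets, 4 had more OE-only than mi8-only peaks and 46 had fewer. That is 88.5% beside 73.5% of all genes for fewer and 7.69% beside 1.85% for more. Genes with equal counts made up 3.85% of the 52 and 24.7% of all genes, so the other shares are not on a like footing. The median difference of the 52 genes, OE-only minus mi8-only peaks, was -4, beside -2 over all genes. These counts depend on the lengths of the lists: with the strongest 111510 peaks of each list, 19 genes were ahead in OE and 22 in mi8. All genes were not counted at that length, so these numbers have no background. The 4 genes were Slc2a1, the glucose transporter, with 6 OE-only and 4 mi8-only peaks, Ero1a, an oxidase of the endoplasmic reticulum, with 4 and 3, Cul2, a scaffold of the von Hippel-Lindau ligase, with 2 and 1, and Epo, the gene of erythropoietin, with 1 and 0. All 6 OE-only peaks of Slc2a1 and all 4 of Ero1a lay past the 3′ end of the gene, as did 15 of the 19 at Vegfa. Slc2a1 was the only one of the 39 further genes of known strand with 5 or more there. Hmox1, which breaks down haem, had 5 OE-only and 6 mi8-only peaks.

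The genes of the list with most mi8-only peaks were Arnt2, a relative of Arnt (20, with 2 OE-only), Pfkfb4, a regulator of glycolysis (14 and 0), P4ha2, a collagen hydroxylase (13 and 0), Plin2, a coat protein of lipid droplets (12 and 1), and Os9 (10 and 1). Crebbp, a coactivator of HIF-1, Epas1, which encodes HIF-2α, and the targets Mxi1 and Ndrg1 each had 9 mi8-only and 0 OE-only peaks. All 3 further HIF subunit genes and all 6 coactivators and modulators had fewer OE-only than mi8-only peaks, as did 8 of 10 oxygen-sensing genes and 29 of 33 targets, beside 73.5% of all genes. With HP109 and LMP8, 39 of the 52 genes had more HP109-only than LMP8-only peaks (75.0%, beside 56.9% of all genes) and 5 fewer (9.62%, beside 8.52%), with a median difference of 2 beside 1. Equal counts made up 15.4% of the 52 and 34.5% of all genes, so these shares are not on a like footing either. With lists of equal length 19 of the 52 genes were ahead in HP109 and 18 in LMP8, again with no count over all genes. The highest HP109-only counts were those of Gbe1, a glycogen branching enzyme (11 and 0), Arnt2 (7 and 3), Arg1, the arginase of alternatively activated macrophages (6 and 2), Kdm4b, a histone demethylase (6 and 1), and Plin2 (6 and 1).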

How the data were processed

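Mouse ATAC-seq peak lists, 1 for each of 4 vectors with 2 libraries each, were taken as the authors deposited them. BWA, Picard and MACS2 on build mm10 are named in the submitters' processing notes. No source used here gives versions, thresholds, read shifting, how libraries were pooled, or how they were downsampled, a step the list names mention. The score column the authors deposited is 10 times the −log10 q as a whole number. The fold the authors deposited is a ratio of the summit pileup to the input background (1 added to each, as the values show), and the −log10 p and −log10 q they deposited refer to the same summit. The lists have no headers.

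Only the autosomes and sex chromosomes were used, and no interval was repeated. Lists were compared with pandas 2.3.3, NumPy 2.4.6 and SciPy 1.17.1 in Python 3.11.15, and checked on simulated peaks with known overlaps. Pileup k and background were recovered from fold = (k + 1) / (background + 1) and the upper Poisson tail, within 0.001 of the printed −log10 p. A peak's segment followed its summit. Strand came from the RefSeq promoter table (17491 genes). Intervals are Clopper-Pearson. No test between groups was possible with 1 list per group.

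The 6 genes and the gene lists were chosen with earlier results of these data known. All 6 were named, with up to 10 pathway genes per comparison by the number of peaks in 1 list alone, and the 5 genes with the highest share of OE peaks absent from mi8. All 58 entries of the pathway list were found, and 52 of them are not among the 6 genes. Alternatives covered the overlap, the −log10 q minimum, list length, window, summit lines and summit position.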

Additional observations from a re-analysis of the deposited data

How the results depend on the processing

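No paired analysis was possible because each deposited list joins both libraries of a vector, and for that reason no replicate could be left out. Peak totals over the 6 genes in mi8, OE, LMP8 and HP109 were 60, 62, 53 and 68 at a −log10 q of at least 10, 58, 65, 50 and 53 in the gene span alone, 73, 92, 63 and 73 with 5 kb on each side, and 65, 63, 61 and 72 with peaks up to 1 kb apart merged, the alternative added after seeing the data. With equal numbers of peaks per list (111510 each) mi8 had 67 and HP109 75. OE peaks absent from mi8, 58 in all, came to 33 at a −log10 q of at least 5, 13 at 10, 23 in the span, 38 with 5 kb and 11 merged. For Hif1a they were 16, 7, 18 in the span and 8 merged, for Egln3 5, 0, 1 and 2, and for Vegfa 10, 6, 4 and 0, with 9 for Vegfa within 5 kb. The minimum and the equal length were set on every list, so a peak also counts as absent where its counterpart fell below the cut. Against the whole mi8 list, the absent OE peaks of 10 to 20 numbered 2 at Hif1a, 0 at Egln3 and 4 at Vegfa. The mi8 peaks absent from OE (27) were 11 at 10, 4 with equal numbers, 17 in the span and 10 merged. HP109 peaks absent from LMP8 (21) were 12 with equal numbers, 5 in the span, 11 with 5 kb and 12 merged. LMP8 peaks absent from HP109 (4) were 8 with an overlap of at least 50%, 1 at 10, 14 with equal numbers and 0 merged. Those of mi8 absent from LMP8 (28) were 11 at 10, 6 with equal numbers, 16 in the span and 10 merged, and those of LMP8 absent from mi8 (8) were 2 at 10, 3 in the span, 4 with 5 kb and 3 merged. Pathway genes ahead in OE were 2 in the span and 19 with equal numbers, those ahead in mi8 22 with equal numbers, those ahead in HP109 25 in the span and 19 with equal numbers, and those ahead in LMP8 18 with equal numbers. All genes were not counted under these alternatives. The difference OE-only minus mi8-only changed sign at Egln3 at a −log10 q of at least 10 (-1) and in the span (-4), at Vegfa when merged (-4), and at Egln1 and Bnip3 with equal numbers (1 each). HP109-only minus LMP8-only changed sign at Vegfa in the span (-1). A stricter −log10 q and a smaller window leave fewer peaks by construction; the cause of the other changes was not tested. OE-only minus mi8-only was positive at Hif1a under all 9 alternatives run, from 6 to 36. It was 25, as in the main setting, with an overlap of at least 50%, with every summit line and by summit position. Hif1a was chosen for its extra OE peaks, so a positive sign follows largely from that choice and lends no support.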

Other observations

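Other genes had long OE-only stretches past their 3′ ends, and they are named here after their values were seen. Ddhd1, a phospholipase, had 12 OE peaks absent from mi8 in the 20 kb past its 3′ end, and Mdm2, the ubiquitin ligase of p53, and Clec4d, a C-type lectin of myeloid cells, had 10 each. Btg1, an antiproliferative gene, Cpm and Frmd8 had 9 each. Clec4e, a lectin receptor beside Clec4d, and Mfsd12 had 8 each. Hspa5, whose span overlaps that of Rabepk, and Milr1 had 7 each. In the same stretch mi8 peaks absent from OE numbered 5 at Ddhd1, 2 at Clec4d and 0 at Mdm2, so the excess was in OE in each case. Cdkn1a, the cell cycle inhibitor p21, had 9 of 16 OE peaks absent from mi8 in its window, 3 of them past the 3′ end. Its window overlaps that of Rab44.

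Of the marker lists checked, those of other cell types had these gene-end peaks. Mast cell and basophil markers had 2 of 5 in mi8, 1 in OE, 2 in LMP8 and 2 in HP109. T and B cell markers had 4 of 7, 2, 4 and 5, stroma 3 of 4, 1, 1 and 2, and erythroid cells 3 of 4, 2, 3 and 4 in that order.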
